A study of Mus musculus with 14 samples.

Results

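Drug and organic anion transporters are the membrane proteins that move drugs, bile pigments, hormone conjugates, carnitine and other charged organic molecules into and out of cells. The members were taken by symbol: genes of the Slco and Slc22a families, which mostly carry substrates into cells, and the Abcc and Slc47a families with Abcb1a, Abcb1b and Abcg2, which mostly carry them out. In the liver data analysed here this gave 54 of 22180 genes, 39 on the uptake side and 15 on the efflux side, each read by its brightest probe set. Slco2b1 was the 1 member with more than 1 probe set. Livers were compared between mice kept from sleeping for 6 h (7 mice, numbered 1, 2, 3, 5, 6, 10 and 13) and control mice (7 mice, numbered 4, 7, 8, 9, 11, 12 and 14). All were males of the inbred strain C57BL/6J. RNA of flash-frozen liver tissue was labelled from 100 ng and hybridised to Affymetrix whole-transcript arrays, 1 per sample. The labels give neither the age of the mice nor the time of day, and do not say which of the methods of disturbing sleep named in the design (cage changing, water platform, gentle handling) preceded these arrays. Each numbered sample is taken as 1 mouse, so the p-values measure the spread between these samples.

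Hepatocytes take up organic anions from sinusoidal blood through OATP proteins (the Slco genes) and OAT proteins (Slc22a), modify them, and pass the products on. Export into bile across the canalicular membrane runs through MRP2 (Abcc2), BCRP (Abcg2), P-glycoprotein (Abcb1a and Abcb1b) and the proton-coupled exchanger MATE1 (Slc47a1). Export back to blood across the basolateral membrane runs through other MRP proteins such as MRP3 (Abcc3) and MRP4 (Abcc4). All values below are log2 expression, and the differences are log2 differences, sleep-deprived minus control, with limma's moderated SE. A gene is called changed where its p-value, adjusted by Benjamini-Hochberg over all 22180 genes, was under 0.05.

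Transporter genes that changed were lower after sleep deprivation on both sides. Of the 54 members 8 fell and 0 rose. Over all genes tested, 8.5% changed, 4.62% being lower and 3.88% higher, against 14.8% of the members lower. On the uptake side 4 of 39 fell: Slco1b2, Slc22a23, Slc22a28 and Slc22a30. On the efflux side 4 of 15 fell: Abcc2, Abcc3, Abcg2 and Slc47a1. The shares, 10.3% for uptake and 26.7% for efflux, were not tested against each other. The median difference was -0.049 over the uptake genes and -0.12 over the efflux genes, beside -0.0048 over all genes. The changes were small, between -0.19 and -0.53. At an unadjusted p under 0.05 there were 14 lower members and 1 higher, Slc22a5. In bulk tissue, fewer cells of a type and less RNA per cell cannot be told apart.

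Many members belong to kidney, brain or testis, so their probe sets were set beside those of 1390 olfactory and vomeronasal receptor genes, which serve sensory neurons. The 95th percentile of the mean levels of those receptors was 3.50, and a gene above it is called bright here. By this limit 28 members were bright (17 uptake, 11 efflux) and 26 were dim. All 8 members that fell were bright. Among all bright genes 14.3% changed, 7.78% being lower and 6.51% higher. The 26 dim members lay between -0.18 and 0.24, and 0 of them passed limma (0 at an unadjusted p under 0.05). They included the kidney transporters Slc22a6, Slc22a8 and Slc22a2, the testis genes Slco6c1 and Slco6d1 and the thyroxine carrier Slco1c1. Calls at so low a signal were rare: of all 9433 dim genes 33 fell and 31 rose.

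**Figure D1:**
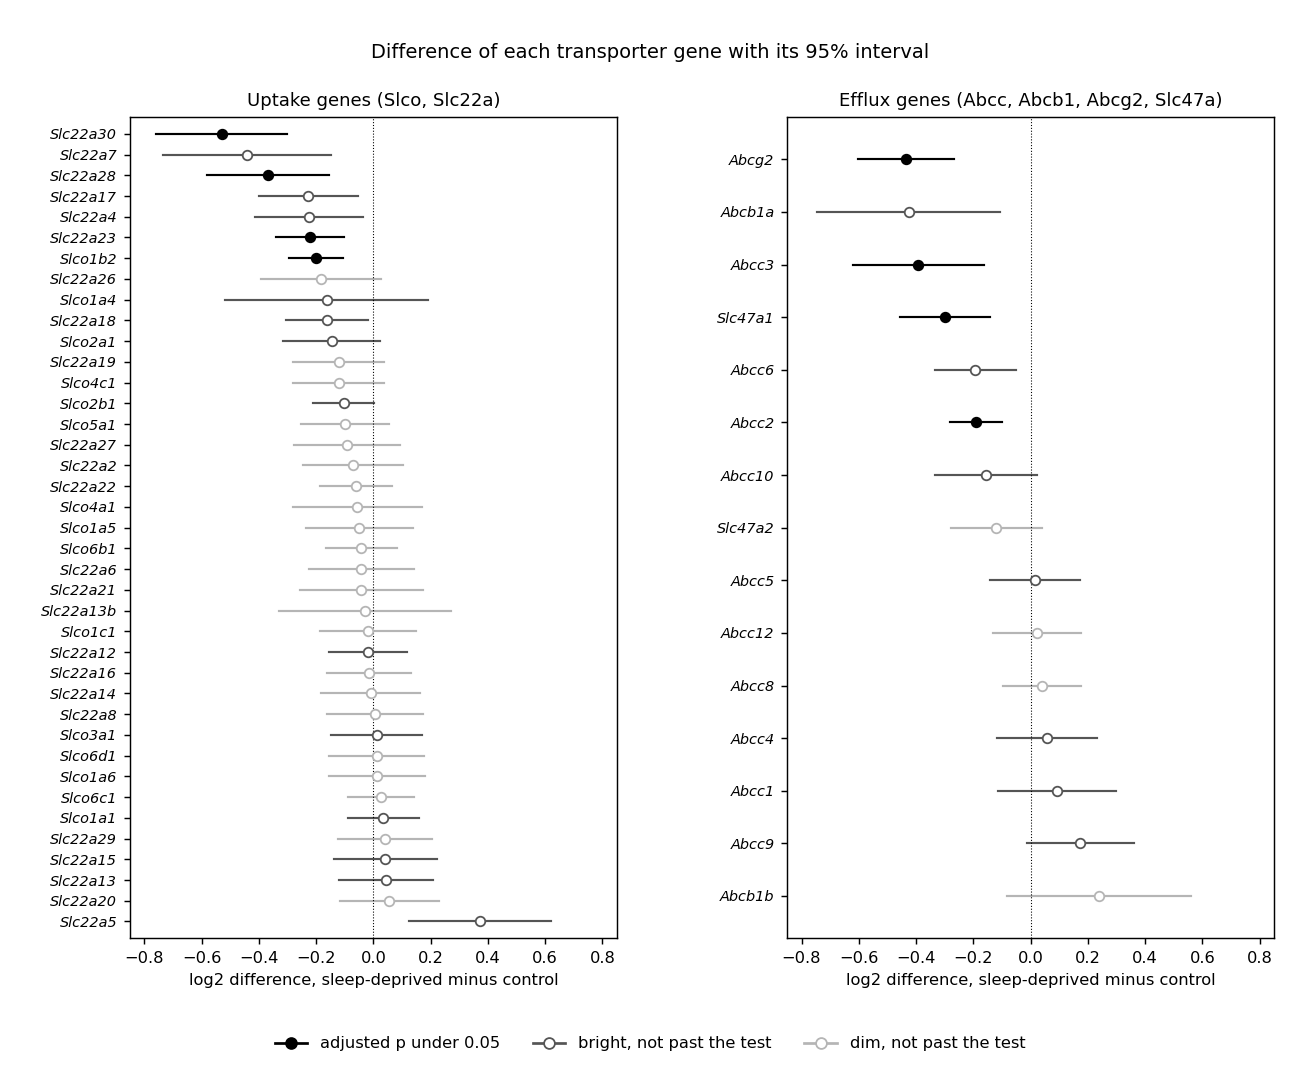
Log2 difference (sleep-deprived minus control, horizontal axis) of each of the 39 uptake and 15 efflux genes, with its 95% interval from limma. Filled black points are the 8 genes past an adjusted p of 0.05, all left of 0, from Slc22a30 at -0.53 to Abcc2 at -0.19. Light grey marks the 26 dim members.

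Among the sinusoidal uptake carriers of the hepatocyte, Slco1b2 fell. It encodes OATP1B2, the mouse counterpart of human OATP1B1 and OATP1B3, which takes up bilirubin, bile acids and statins. Its level in the 7 sleep-deprived livers was 11.20 at the lowest, 11.39 at the median and 11.47 at the highest, against 11.47, 11.54 and 11.74 in controls. The groups did not overlap. Abcg2 was the 1 other member of which this held. Over all genes the groups did not overlap for 3.13%, and for 1.79% with the lower values in sleep-deprived mice (3.1% of bright genes). The highest sleep-deprived mouse (10) stood just under the lowest control (4). The mean was 11.36 ± 0.088 in sleep-deprived and 11.56 ± 0.086 in control mice (SD, n = 7 each). The difference was -0.20 ± 0.045 (limma, adjusted p = 0.00699), so that the level fell by 13.0%.

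The other 4 carriers of that group did not pass. Slco1a1, whose product OATP1A1 takes up bile acids and steroid conjugates, was between 10.73 and 10.88 in sleep-deprived mice (median 10.77), against 10.58 to 11.01 in controls (median 10.71). The sleep-deprived values lay wholly inside the control range. The difference was 0.034 ± 0.059, with a 95% interval from -0.090 to 0.16 (limma, adjusted p = 0.839). Slco2b1, the gene of the steroid sulfate carrier OATP2B1, was at -0.10 ± 0.051 (interval -0.21 to 0.0028, adjusted p = 0.276). Its dimmer probe set gave -0.11 ± 0.096.

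Slco1a4, the gene of OATP1A4, a carrier of digoxin and bile acids, was the most variable of the group. It ranged from 6.39 to 7.66 in sleep-deprived mice (median 6.65) and from 6.62 to 7.59 in controls (median 6.76). Mouse 10 among the sleep-deprived and mouse 14 among the controls stood highest. The difference of -0.16 ± 0.17 had an interval from -0.52 to 0.19 (limma, adjusted p = 0.694), and without mouse 10 it was -0.31 (adjusted p = 0.203). Slc22a7 encodes OAT2, a sinusoidal carrier of organic anions and nucleotides. It was at 7.04, 7.47 and 7.83 (lowest, median, highest) in sleep-deprived mice, against 7.50, 8.04 and 8.22 in controls. The sleep-deprived mice all lay below the control mean, and 3 of them inside the control range. Its difference of -0.44 ± 0.14 (interval -0.74 to -0.15) lay just outside the threshold (limma, adjusted p = 0.0576). It passed without sleep-deprived mouse 2, 3 or 6 or control mouse 7 or 14, with adjusted p from 0.0301 to 0.0383. It also passed with the sample number as a covariate (-0.54, adjusted p = 0.0333) and over the genes above the median (0.0363) or bright genes (0.0391) alone.

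**Figure D2:**
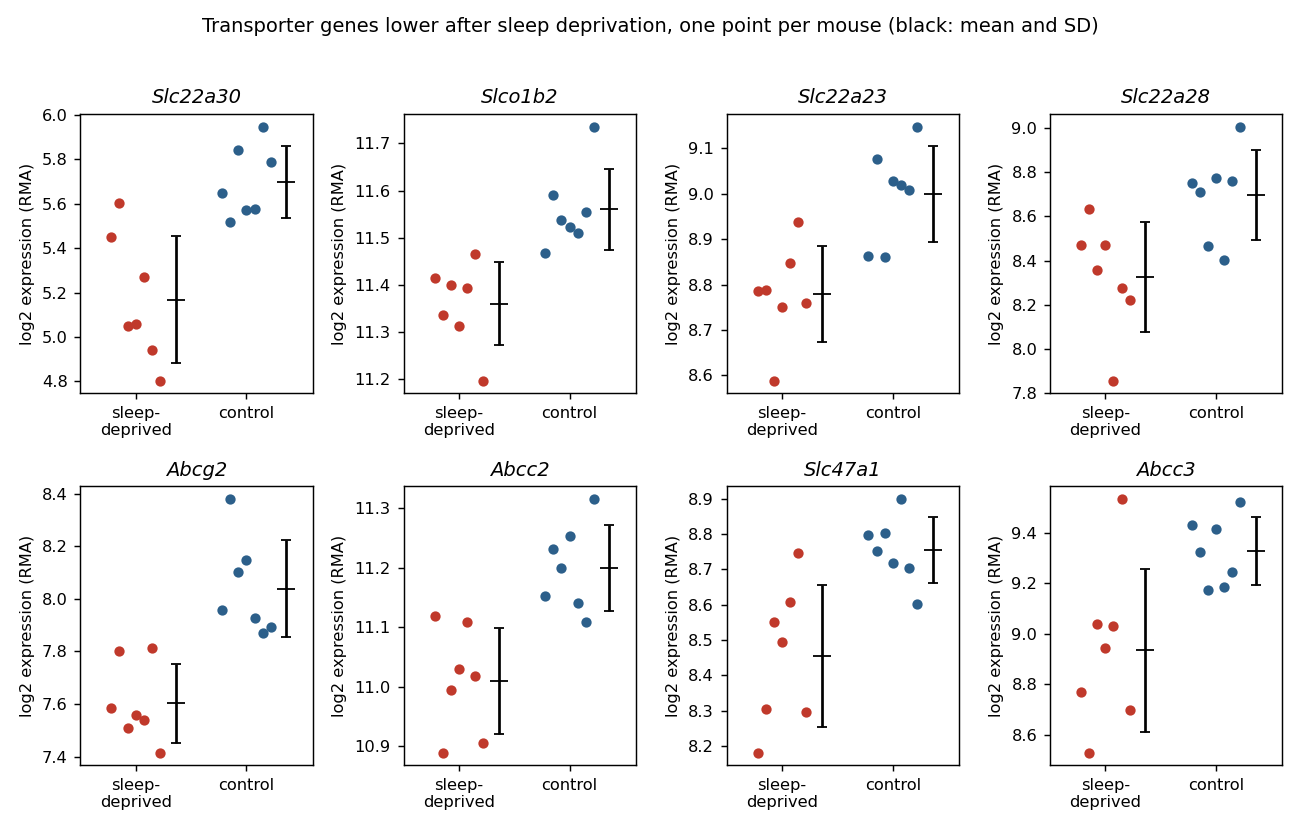
Log2 expression (RMA, vertical axes, which do not start at 0) of the 8 members that fell, 1 point per mouse, with mean and SD in black. Sleep-deprived mice are red and controls blue, and uptake genes fill the upper row. In Slco1b2 and Abcg2 the groups do not overlap, while in Abcc3 sleep-deprived mouse 10, at 9.53, stands above every control.

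Both bright genes of an organic anion transporter cluster fell. On mouse chromosome 19, RefSeq places Slc22a19, Slc22a26, Slc22a27, Slc22a28, Slc22a29 and Slc22a30 next to each other with no other protein-coding gene between them. These are OAT-like genes of rodents. Slc22a30 was at 4.80, 5.06 and 5.60 (lowest, median, highest) in sleep-deprived mice, against 5.52, 5.65 and 5.95 in controls. Only sleep-deprived mouse 2 reached the control range. The difference was -0.53 ± 0.11 (limma, adjusted p = 0.00341), so that the level fell by 30.7%, the largest change among the 8.

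Slc22a28 was at 7.86, 8.36 and 8.63 in sleep-deprived mice, against 8.40, 8.75 and 9.00 in controls. Here the groups overlapped, with 3 sleep-deprived mice inside the control range. The difference was -0.37 ± 0.10 (limma, adjusted p = 0.0271). The call was lost without sleep-deprived mouse 10 or 13 or control mouse 4, 9, 12 or 14 (adjusted p 0.0501 to 0.0600), and with every probe set tested as its own feature (0.0855). The other 4 genes of the cluster were dim and lay between -0.18 and 0.041.

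The promoters of these neighbours, shown because both genes fell, are near copies of each other. RefSeq gives 300 bases for each, from 250 before the start of transcription to 50 after it, on build GRCm38.p6. Aligned end to end, those of Slc22a28 and Slc22a30 matched in 288 of 306 columns (94.1%), and the next most alike pair of the cluster, Slc22a29 and Slc22a30, in 68.1%. Capitals mark a match to ACANNNTGT, the core of the glucocorticoid receptor site, searched on both strands and found in 6.85% of 32851 promoters. It was found in 6 of the 44 members that have a RefSeq promoter, the neighbour Slc22a29, with the same letters, among them. That count is of genes, with 53 promoters in all, while the share of 6.85% is of promoters.
Slc22a28, chr19:8131933-8132232, - strand: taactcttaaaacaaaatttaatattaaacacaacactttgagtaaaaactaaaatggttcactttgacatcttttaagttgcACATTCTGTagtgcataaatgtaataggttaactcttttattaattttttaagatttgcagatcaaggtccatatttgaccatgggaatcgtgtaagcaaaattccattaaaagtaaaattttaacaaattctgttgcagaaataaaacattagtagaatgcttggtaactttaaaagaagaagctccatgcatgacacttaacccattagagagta
Slc22a30, chr19:8405056-8405355, - strand: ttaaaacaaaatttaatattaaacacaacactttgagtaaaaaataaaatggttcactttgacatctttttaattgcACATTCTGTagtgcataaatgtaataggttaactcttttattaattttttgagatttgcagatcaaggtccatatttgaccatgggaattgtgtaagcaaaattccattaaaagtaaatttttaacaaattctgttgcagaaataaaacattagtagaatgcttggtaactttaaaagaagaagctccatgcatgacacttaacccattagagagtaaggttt
The same letters, ACATTCTGT, begin at -167 in Slc22a28 and at -173 in Slc22a30, counted from the start of transcription. Whether the probe sets of this pair share signal was not tested. Across mice their levels gave Pearson r = 0.37 (exact permutation p = 0.432) and Spearman rho = 0.64 (exact p = 0.139) in the 7 sleep-deprived mice. In the 7 controls r was 0.16 (exact p = 0.724) and rho 0.14 (exact p = 0.783). After adjustment over the 2 groups the smaller p was 0.724 for r and 0.278 for rho. Without the 2 mice of each group farthest from its median of Slc22a28, r was 0.82 in sleep-deprived and 0.36 in control mice. Those r values rest on the few mice left and were not tested.

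Slc22a23, an orphan member of the family, also fell. Sleep-deprived livers held 8.59, 8.79 and 8.94 (lowest, median, highest), against 8.86, 9.02 and 9.15 in controls. Mouse 10 was the 1 sleep-deprived mouse inside the control range. The difference was -0.22 ± 0.056 (limma, adjusted p = 0.0163), and it lost its call with the sample number as a covariate (-0.17, adjusted p = 0.0829). Slc22a18, an imprinted gene of the family, was at -0.16 ± 0.068 (adjusted p = 0.185) and passed without control mouse 7 (adjusted p = 0.0202). Slc22a17, which encodes a receptor of lipocalin 2, was at -0.23 ± 0.083 (adjusted p = 0.108) and passed without sleep-deprived mouse 6 (adjusted p = 0.0397) or control mouse 7 (0.0247).

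Of the 4 carnitine and ergothioneine carriers 0 passed (limma, 2 at an unadjusted p under 0.05). Slc22a5 encodes OCTN2, which takes carnitine into cells for fatty acid transport into mitochondria. It was at 6.56, 6.91 and 7.50 (lowest, median, highest) in sleep-deprived mice, against 6.44, 6.63 and 6.81 in controls. In 5 sleep-deprived mice it stood above every control, while mice 2 and 6 lay inside the control range. The difference of 0.37 ± 0.12 (interval 0.12 to 0.62) was the largest positive one among the members and did not pass (limma, adjusted p = 0.0594). It passed without sleep-deprived mouse 2 (adjusted p = 0.0153) or 6 (0.0203), with array weights (0.0476), with the sample number as a covariate (0.0140) and over bright genes alone (0.0395). Slc22a4, the gene of the ergothioneine carrier OCTN1, was at -0.22 ± 0.090 (adjusted p = 0.152) and passed without control mouse 4 (-0.29, adjusted p = 0.0229). The carnitine carrier genes Slc22a16 and Slc22a21 were dim.

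The remaining bright uptake genes did not pass. Slco2a1, the prostaglandin transporter gene, ranged from 8.88 to 9.34 in sleep-deprived mice and from 9.16 to 9.51 in controls. Its difference was -0.14 ± 0.081 (limma, adjusted p = 0.364). Slc22a12, the urate exchanger gene, and Slc22a13, Slc22a15 and Slco3a1 lay between -0.018 and 0.044. Their adjusted p ran from 0.842 to 0.966.

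**Figure D3:**
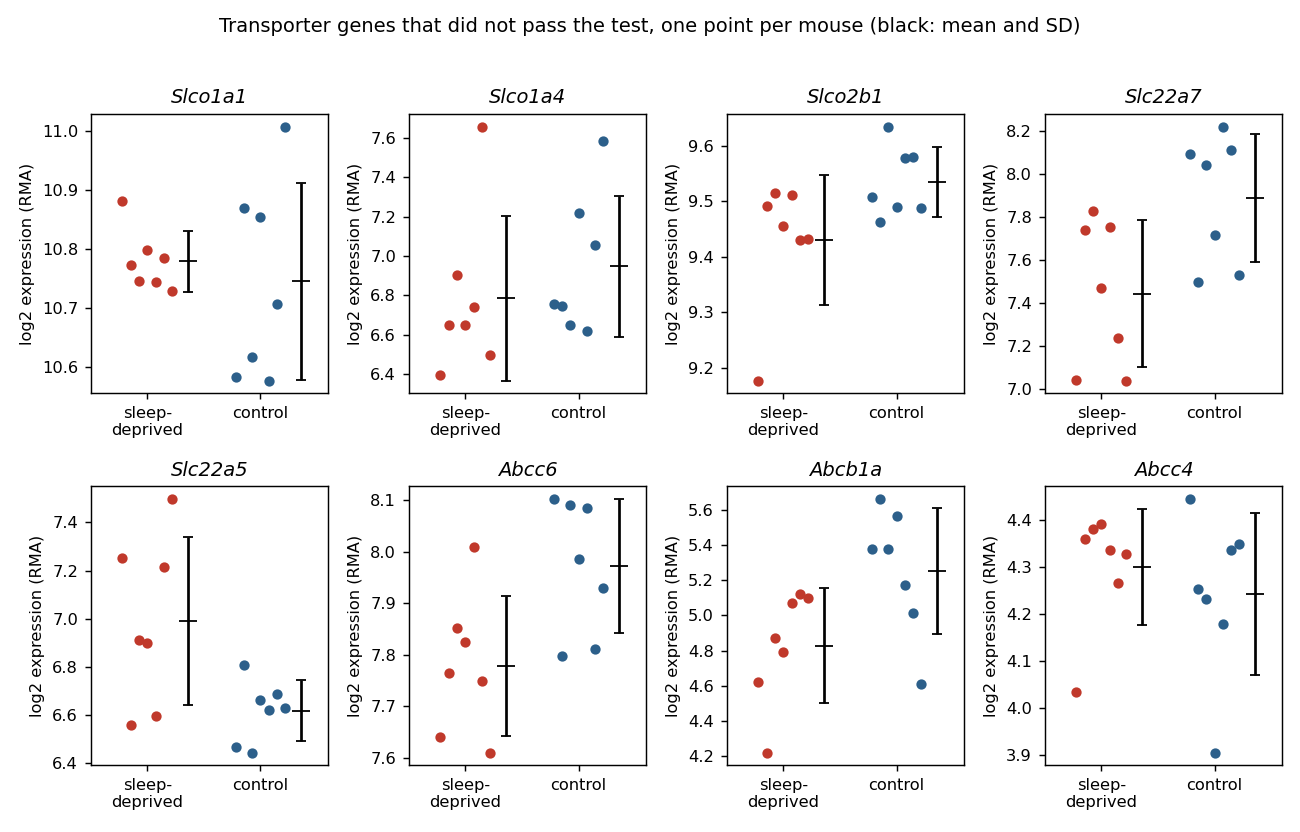
Log2 expression (RMA, vertical axes, which do not start at 0) of 8 members that did not pass the test, 1 point per mouse (sleep-deprived red, control blue), with mean and SD in black. Slc22a7 and Abcb1a lie mostly lower, and Slc22a5 mostly higher, in sleep-deprived mice. Slco1a1 and Abcc4 overlap fully.

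On the efflux side, of the 5 members of the canalicular membrane 3 fell and 0 rose, with a median difference of -0.30. The symbol rule leaves out Abcg5 (-0.67 ± 0.089) and Abcg8 (-0.58 ± 0.076), which fell. It also leaves out Abcb11 (0.17 ± 0.070) and Abcb4 (0.12 ± 0.058), which did not pass. Abcg2 encodes BCRP, which exports urate, sulfate conjugates and porphyrins. It was at 7.41, 7.56 and 7.81 (lowest, median, highest) in sleep-deprived mice, against 7.87, 7.96 and 8.38 in controls. The groups did not overlap. The mean was 7.60 ± 0.15 in sleep-deprived and 8.04 ± 0.18 in control mice (SD, n = 7 each). The difference was -0.44 ± 0.080 (limma, adjusted p = 0.00130), so that the level fell by 26.1%. It had the smallest adjusted p of the 54 members.

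Abcc2 encodes MRP2, which exports bilirubin glucuronides and glutathione conjugates into bile. It was at 10.89, 11.02 and 11.12 in sleep-deprived mice, against 11.11, 11.20 and 11.32 in controls. Sleep-deprived mice 1 and 6 reached the lowest control. The difference was -0.19 ± 0.044 (limma, adjusted p = 0.00802), so that the level fell by 12.4%. Slc47a1 encodes MATE1, which passes organic cations such as metformin into bile in exchange for protons. It was at 8.18, 8.49 and 8.75 in sleep-deprived mice, against 8.60, 8.75 and 8.90 in controls. The difference was -0.30 ± 0.075 (limma, adjusted p = 0.0142), with a wider spread in the sleep-deprived (SD 0.20) than in the control group (SD 0.093).

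The promoters of Abcc2 and Slco1b2 are shown as those of the brightest efflux gene and the brightest uptake gene that fell. Capitals mark TGACNNNGC, the antioxidant response element core bound by NRF2, in Abcc2, and TTCNNNGAA, the STAT motif, in Slco1b2.
Abcc2, chr19:43782058-43782357, + strand: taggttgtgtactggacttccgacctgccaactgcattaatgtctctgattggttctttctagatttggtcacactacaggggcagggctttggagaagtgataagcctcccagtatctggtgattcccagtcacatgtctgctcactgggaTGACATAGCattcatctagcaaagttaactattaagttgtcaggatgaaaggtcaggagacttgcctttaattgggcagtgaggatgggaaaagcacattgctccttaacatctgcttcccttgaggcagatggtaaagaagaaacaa
Slco1b2, chr6:141629268-141629567, + strand: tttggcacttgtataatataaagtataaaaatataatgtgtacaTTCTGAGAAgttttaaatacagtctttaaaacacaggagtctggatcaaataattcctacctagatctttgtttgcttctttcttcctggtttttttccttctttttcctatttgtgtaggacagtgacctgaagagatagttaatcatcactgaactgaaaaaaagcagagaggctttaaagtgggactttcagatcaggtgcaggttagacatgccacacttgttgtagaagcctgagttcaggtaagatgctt
The match in Abcc2 begins at -98 and that in Slco1b2 at -206. Such matches stand in 12.4% and 8.3% of all promoters. Of the 8 members that fell, 6 had a RefSeq promoter. Each of these 2 motifs was found in 1 of those 6, and in 8 of the 38 other members with a RefSeq promoter. These counts are of genes, which had 8 and 45 promoters, while the shares are of promoters. The windows of Abcg2 and Slc22a23 held no match to any motif searched. Neither CACGTG, the E-box of clock factors, nor the HNF1 motif was found in the windows of the 6 members that fell. Those are in 7.15% and 0.399% of all promoters.

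Neither P-glycoprotein gene passed. Abcb1a was at 4.22, 4.87 and 5.12 in sleep-deprived mice, against 4.61, 5.38 and 5.66 in controls, with 6 sleep-deprived mice inside the control range. Its difference was -0.43 ± 0.15 (interval -0.75 to -0.11, limma, adjusted p = 0.101). Without control mouse 14, the lowest control, it passed (-0.53, adjusted p = 0.0189). Abcb1b, which was dim, was at 0.24 ± 0.15 (adjusted p = 0.455), with values from 3.00 to 4.25 in sleep-deprived and from 2.84 to 3.59 in control mice. The difference between the pair was not tested.

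Among MRP genes outside the canalicular membrane, Abcc3 fell. It encodes MRP3, which returns glucuronides to blood. It was at 8.53, 8.94 and 9.53 in sleep-deprived mice, against 9.17, 9.32 and 9.52 in controls. The values of 6 sleep-deprived mice were below every control, and mouse 10 was above every control. The difference was -0.39 ± 0.11 (limma, adjusted p = 0.0282). Without mouse 10 it was -0.49 (adjusted p = 0.000618). The call was lost without sleep-deprived mouse 1, 2 or 13 or control mouse 4, 9 or 14 (adjusted p 0.0550 to 0.0677), and with the sample number as a covariate (-0.33, adjusted p = 0.105).

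The other MRP genes did not pass. Abcc6, whose product drives release of ATP from hepatocytes, was at 7.61, 7.76 and 8.01 in sleep-deprived mice, against 7.80, 7.99 and 8.10 in controls. Its difference was -0.19 ± 0.068 (limma, adjusted p = 0.0898), and it passed without sleep-deprived mouse 6 (-0.23, adjusted p = 0.0303). Abcc4, the gene of MRP4, an exporter of cyclic nucleotides and bile acids, was at 0.057 ± 0.083, with an interval from -0.12 to 0.23 (adjusted p = 0.806). Abcc1, Abcc5 and Abcc10 lay between -0.16 and 0.093. Abcc9, which encodes a subunit of potassium channels and not an exporter, was at 0.17 ± 0.089 (adjusted p = 0.309).

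Of the 28 bright members, 19 to 21 lay below their control mean in each sleep-deprived mouse, against 11 to 17 in each control mouse. Of all 12747 bright genes, 6215 to 6823 lay below it in sleep-deprived mice and 5455 to 7584 in controls. The members that fell are among the 28, and controls were measured against their own mean. Genes read in the same mouse are not independent, and these counts were not tested. Each mouse was summarised by the median, over the 28 bright members, of its distance from the control mean of each gene. That median ran from -0.23 to -0.074 in sleep-deprived mice and from -0.053 to 0.065 in controls. For the 17 bright uptake genes it ran from -0.21 to -0.023 in sleep-deprived and from -0.099 to 0.067 in control mice, so that the groups overlapped. For the 11 bright efflux genes it ran from -0.26 to -0.090 in sleep-deprived and from -0.065 to 0.062 in control mice, with no overlap. Over all 15 efflux genes, the dim ones included, it ran from -0.15 to -0.0079 in sleep-deprived and from -0.057 to 0.062 in control mice, and the groups overlapped. Over all bright genes the same median lay between -0.015 and 0.0063 in sleep-deprived and between -0.035 and 0.023 in control mice.

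Mouse 10 stood apart in part. It had the highest sleep-deprived value in 5 of the 8 members that fell, and mouse 13 the lowest in 3. Among controls, mouse 14 was the highest in 5 of the 8. Slco1a4 and Abcc3 were highest in mouse 10 among the sleep-deprived (7.66 and 9.53) and in mouse 14 among the controls (7.59 and 9.52).

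**Figure D4:**
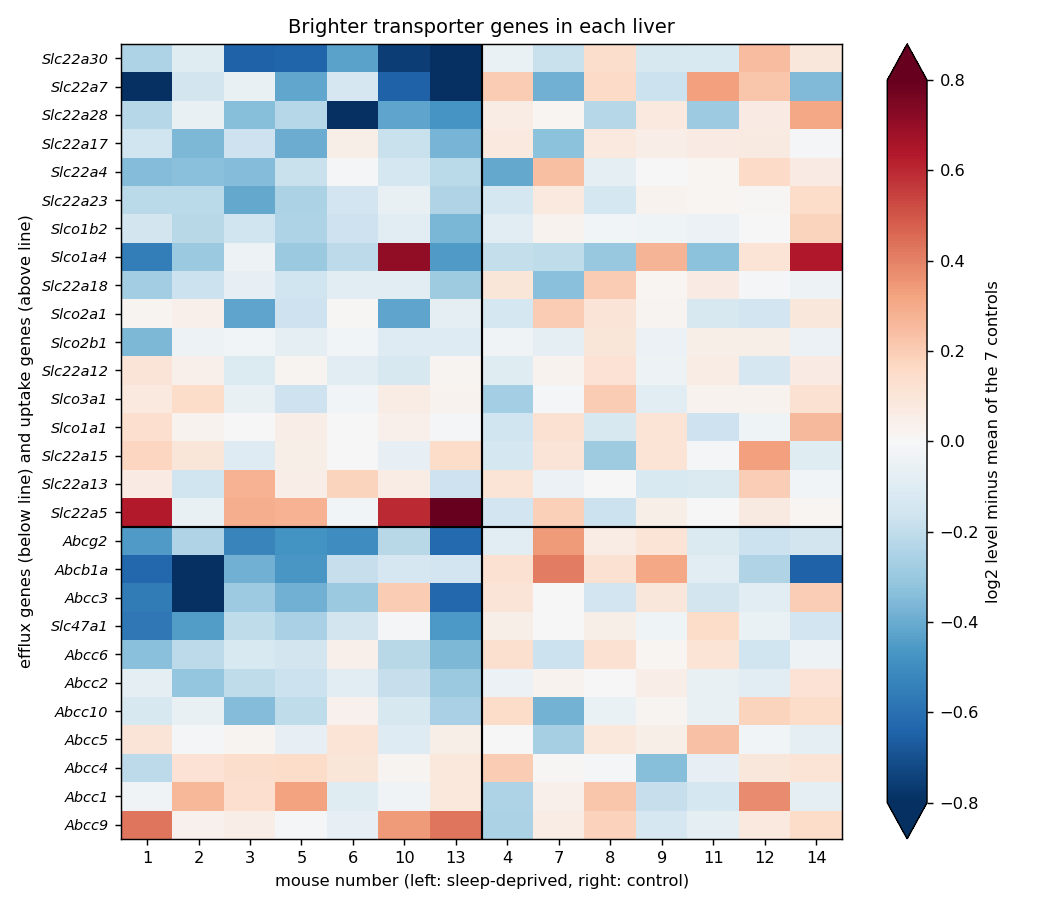
Log2 level minus the mean of the 7 controls (colour, capped at ±0.8) for the 28 bright members (rows, 17 uptake genes above the line and 11 efflux genes below it) in each mouse (columns, sleep-deprived left and control right). Blue is lower than the control mean. Within each block the rows are ordered by difference, lowest at the top. Blue in the upper rows of the sleep-deprived mice follows from that order. Slc22a5 is red in 5 of the sleep-deprived mice.

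Genes around the transporters were counted in lists from textbook knowledge. Most genes of these lists were bright, and of all bright genes 14.3% changed (7.78% lower, 6.51% higher). Of 12 measured partners in bile acid and lipid transport, 0 rose and 4 fell. The lower ones were Abcg5 (-0.67 ± 0.089) and Abcg8 (-0.58 ± 0.076), which export sterols, the peroxisomal transporter Abcd3 (-0.31 ± 0.043) and the bile acid and fatty acid ligase Slc27a5 (-0.22 ± 0.040). The bile salt carriers did not pass, Slc10a1, the uptake carrier NTCP, being at -0.10 ± 0.047 (limma, adjusted p = 0.217) and Abcb11, the bile salt export pump, at 0.17 ± 0.070 (adjusted p = 0.181). Of 6 measured scaffolds that anchor transporters at the membrane, 0 rose and 2 fell: Rdx, which encodes radixin, a link between MRP2 and actin (-0.25 ± 0.040, adjusted p = 0.000317), and Slc9a3r1, which encodes a PDZ protein (-0.30 ± 0.051, adjusted p = 0.000623). In both the groups did not overlap. Slc9a3r2 was at 0.22 ± 0.073 (limma, adjusted p = 0.0630), with all 7 sleep-deprived mice above the control mean. Over the 6 scaffolds 3 differences were negative and 3 positive.

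Of 15 receptors and factors that control transporter genes, 1 rose and 4 fell. All 15 were bright, and of all bright genes 7.78% were lower and 6.51% higher. Foxo1 rose by 0.28 ± 0.060 (limma, adjusted p = 0.00426). The aryl hydrocarbon receptor gene Ahr (-0.37 ± 0.093), the glucocorticoid receptor gene Nr3c1 (-0.22 ± 0.055), Stat5b (-0.21 ± 0.055) and Nr1i3 (-0.39 ± 0.11, adjusted p = 0.0304) fell. Among 10 measured genes that respond to CAR or PXR 2 rose and 0 fell: Cyp2b10 (2.37 ± 0.37) and Sult1e1 (0.41 ± 0.094). In Cyp2b10 all 7 sleep-deprived mice lay above the control mean, but the groups overlapped. Gadd45b was at 0.41 ± 0.13 (adjusted p = 0.0570) and Cyp2b9 at -0.58 ± 0.20 (adjusted p = 0.0818). The remaining genes of the list, Cyp3a11, Cyp3a13, Cyp2c29, Cyp2c55, Alas1 and Gstm1, lay between -0.074 and 0.060. Over the 10 genes 6 differences were negative and 4 positive, with a median of -0.019. Sult1e1 was dim.

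Markers of cell types and liver zones were read beside these results. Of 7 measured hepatocyte markers 2 rose (Apoa1 and Cps1) and 0 fell, and their summed linear level was 47010 to 48815 in sleep-deprived and 46094 to 48102 in control mice. Of 9 pericentral markers 2 fell (Lgr5 and Lect2), with a summed level of 14222 to 15543 in sleep-deprived and 15051 to 16268 in control mice. Their mean log2 level did not overlap, at 8.59 to 8.840 in sleep-deprived and 8.841 to 8.96 in control mice. Lgr5 (-1.05) and Lect2 (-0.44) had the largest differences of the list, and the other 7 lay between -0.14 and 0.077, with each of the 7 sleep-deprived mice higher in Glul than the mean of the controls. Of 6 periportal markers 1 rose and 1 fell. Of 8 endothelial markers 3 rose (Lyve1, Oit3 and Pecam1) and 0 fell, with a summed level of 1368 to 1878 in sleep-deprived and 1216 to 1543 in control mice. Kdr, the 1 endothelial marker with a negative difference, was at -0.18 ± 0.067 (limma, adjusted p = 0.114). The part of zones and cell types in the transporter differences was not tested.

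**Figure D5:**
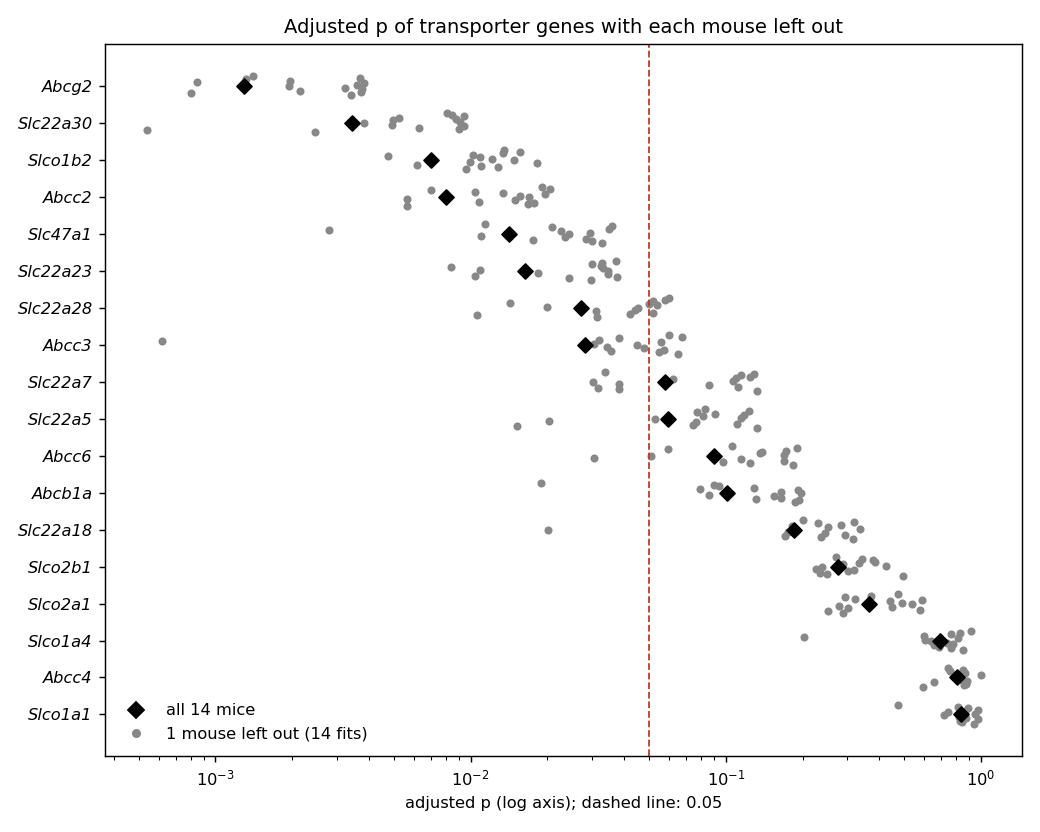
Adjusted p (limma, horizontal log axis) of the 18 members described by rule, from the fit of all 14 mice (black diamonds) and from 14 fits that each left out 1 mouse (grey points). The dashed line is the threshold of 0.05. The points of Abcg2, Slc22a30, Slco1b2, Abcc2, Slc47a1 and Slc22a23 all lie left of it, and those of Slc22a28 and Abcc3 fall on both sides.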

How the data were processed

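The authors deposited RMA values on a log2 scale, 1 per probe set and array. RMA is named in the submitters' processing notes with no version, and filters are not stated there. RMA subtracts background, equalises the distributions of all arrays and summarises probes, so a shift shared by most genes would not show. Of 41345 probe sets 23521 had 1 gene symbol in the platform annotation, 1814 several, and 16010 were unlisted. Symbols were updated by Entrez ID (23328 matched, 0 changed). The brightest probe set stood for a gene. Array medians lay between 3.443 and 3.491, and the number of arrays, 7 per group, limits the precision. Depth does not apply.

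Groups came from the titles. Sleep-deprived minus control was fitted over all 22180 genes with limma 3.58.1 under R 4.3.3. Its eBayes step used an intensity trend, tests were two-sided with Benjamini-Hochberg adjustment, and intervals are 95% moderated ones. The steps were tested on simulated data. Promoters were aligned globally with Biopython 1.88. The members, lists and tests were chosen with earlier results of these data known. Described by rule were members past the threshold, the 12 brightest and 14 core names (13 measured), 18 in all, with up to 4 genes per list. Nr1i3, Slc10a1, Abcb11 and other members given with values were chosen after their values were seen. Alternatives were other variance priors, array weights, filters on dim genes, other uses of probe sets, other scalings, the sample number as a covariate and leaving out each mouse.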

Additional observations from a re-analysis of the deposited data

Results flagged for a closer look

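Of 36 groups of 7 values checked, those of the 18 described members, 3 held a mouse far from the other mice of its group. Chance flags about 1 in 20 groups, here 1.8. In Slco1a4, sleep-deprived mouse 10 was at 7.66, with the next at 6.91. In Slco2b1, sleep-deprived mouse 1 was at 9.18, with the next at 9.43. In Abcc4, sleep-deprived mouse 1 was at 4.03, with the next at 4.26. None of these 3 genes passed the test with all mice or without any 1 mouse.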

How the results depend on the processing

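Of the 8 members that fell, 5 (Slco1b2, Slc22a30, Abcg2, Abcc2 and Slc47a1) kept their call in all 10 other settings and in all 14 fits that left out 1 mouse. No described member that passed in any of these fits had a sign other than its sign with all mice. The count of lower uptake genes was 4, 3 to 5 in the other settings (5 over the genes above the median or above the receptor limit alone, with Slc22a7), and 3 to 7 with 1 mouse left out (7 without control mouse 7, when Slc22a7, Slc22a17 and Slc22a18 joined), and that of lower efflux genes 4, and 3 to 5. The count of higher uptake genes was 0, and 1 (Slc22a5) with array weights, with the sample number as a covariate and over the genes above the median or above the receptor limit alone. It was 0 to 1 with 1 mouse left out (1 without sleep-deprived mouse 2 or 6). Over either of those filtered sets the median difference was -0.16 for uptake and -0.19 for efflux genes, by construction without the dim members. The median of all genes was -0.0029 with each array centred on its median and -0.0051 with the distributions equalised again, beside -0.0048. RMA had already equalised the arrays, so these scalings could move it little. Robust eBayes left Abcc3 at an adjusted p of 0.0520 and testing every probe set at 0.0905. No paired analysis was possible because the groups share no sample number. Low signal limits what the 26 dim members can show.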

Other observations

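The enzymes that make the conjugates these transporters carry were lower in part. Of 15 measured conjugation genes 1 rose and 6 fell, with a median log2 difference of -0.21. All 15 were bright, and of all bright genes 7.78% were lower and 6.51% higher. The glucuronosyltransferase gene Ugt2b35 was at 7.74 ± 0.17 in sleep-deprived and 8.77 ± 0.16 in control mice (SD, n = 7 each), a difference of -1.03 ± 0.079 (limma, adjusted p = 1.15e-07). Papss2, which makes the sulfate donor, was at -0.73 ± 0.093, and the sulfotransferase gene Sult2a8 at -0.39 ± 0.052. Sult1d1, another sulfotransferase gene, rose by 0.85 ± 0.067. In these 4 genes the groups did not overlap.

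Markers of lymphocytes and neutrophils were mostly at or below the level of olfactory and vomeronasal receptors (4 of 6 and 4 of 5). The lymphocyte marker Cd79a, which was dim, fell by 0.38 ± 0.091 (limma, adjusted p = 0.0112), and its groups did not overlap. The 6 erythroid markers were not analysed here. Of 8 Kupffer cell markers 4 lay higher and 4 lower, and Cd163 alone passed, rising by 0.88 ± 0.14. The summed linear level of that list was 582 to 1024 in sleep-deprived and 522 to 1188 in control mice. Of 8 stellate cell markers 0 rose and 0 fell (limma, 2 at an unadjusted p under 0.05). Of 5 measured cholangiocyte markers Sox9 rose (0.56 ± 0.16, limma, adjusted p = 0.0359). The other 4, of which 2 were dim, lay between -0.074 and 0.11. The summed linear level of the list was 100 to 186 in sleep-deprived and 82 to 105 in control mice. Its mean log2 level was 3.71 to 4.19 and 3.68 to 3.83, and by both measures the groups overlapped.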
